A study of Mus musculus with 8 samples.

Results

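The response of splenic CD4+ T cells from offspring of parents given cadmium (Cd) to 16 h of stimulation was examined in 4 RNA sequencing libraries. The response was described over the genes whose mean RPKM (reads scaled to transcript length and library size) was 0.5 or more across the 8 libraries of the series, which left 12605 of 27179 genes. The mice were 8 weeks old and of the strain C.Cg-Foxp3tm2Tch/J, which carries a green fluorescent reporter at the gene of the regulatory T cell factor Foxp3. Their parents drank water with 10 ppm Cd, as CdCl2, before and during mating, and the dams until birth. Cells were enriched by negative selection and sorted, then lysed at once (unstimulated, 0 h) or cultured for 16 h with beads that carry antibodies to CD3 and CD28 (stimulated), with replicates 6 and 7 in each group of 2 libraries. The 4 libraries of control offspring, from parents on plain water, were otherwise treated alike and are used for comparison. Because the unstimulated cells were not kept in culture, stimulation and 16 h of culture cannot be told apart. The labels do not say which animals the 2 replicates of a group came from, so p-values measure only the spread between these libraries, which may be technical.

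Beads against CD3 and CD28 stand in for antigen and costimulation, the paired signals that wake a resting T cell. Calcium, kinase and NF-kB signalling from these receptors first switch on immediate early genes within minutes, then cytokine and receptor genes, and over hours the cell enlarges, makes ribosomes, takes up amino acids and glucose and prepares to copy its DNA. A resting naive T cell is held back from this by quiescence factors such as the Klf and Foxo proteins, and it circulates through lymphoid organs by its homing receptors.

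The unstimulated libraries held 19419451 and 20538306 reads and the stimulated ones 21987821 and 25486791, as recovered from the steps of the low values, so that 1 read on a transcript of 1 kb was worth 0.0392 to 0.0515 RPKM. The 2 libraries of a group correlated at 0.986 (unstimulated) and 0.990 (stimulated) over the genes tested. Fold changes are on the scale of log2(RPKM + 0.1), which understates the change of low genes. Each was tested with limma in one fit of the 8 libraries, with Benjamini-Hochberg adjustment over the 12605 genes, and a gene was called where it changed more than 2-fold with an adjusted p below 0.01. An exact permutation test of 2 libraries against 2 cannot give a two-sided p below 0.333, so these p-values rest on the spread pooled over the groups and genes. The T cell genes Cd3e (428 and 443, then 316 and 318 RPKM) and Cd4 (291 and 289, then 227 and 221 RPKM) were abundant in all 4 libraries. Of the B cell genes, Ms4a1 was listed at 0, Cd79a lay between 2.94 and 4.73 RPKM, and Ighm at 275 and 253, then 109.8 and 113 RPKM.

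After 16 h, 1435 genes were higher (11.4% of those tested) and 913 were lower (7.24%). No called gene had overlapping values between stimulated and unstimulated libraries. The rule for a call makes this likely, so it adds no support, also where it is stated for single called genes below. The genes that rose took 4.87% and 4.95% of the reads of the unstimulated libraries and 13.7% and 13.9% of those of the stimulated libraries. Those that fell went from 10.8% and 10.4% to 4.08% and 3.99% of the reads. Most changes were modest, with a median size of 1.44 on the log2 scale among the genes that rose and 1.42 among those that fell, but 42 increases and 17 decreases were larger than 4. Over all genes tested the median log2 fold change was 0.05.

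The largest increase was that of Irf4, a transcription factor that scales with the strength of the T cell receptor signal. It was at 2.27 and 2.82 RPKM in the unstimulated and at 486 and 522 RPKM in the stimulated libraries (log2 fold change 7.58, SE 0.113, adjusted p = 6.28e-08). Lad1, which encodes the filament-anchoring protein ladinin, followed with 0.7401 and 0.814 RPKM before and 159 and 148 RPKM after stimulation (7.45, SE 0.109, adjusted p = 6.28e-08). In both genes the stimulated libraries lay far above the unstimulated ones. The secreted factors Pdgfb (7.15) and Il2 (6.87), the first enzyme of glycolysis Hk2 (5.72), the chemokine receptor Ccr8 (5.601), the carboxypeptidase Cpd (5.48) and the branched-chain aminotransferase Bcat1 (5.35) were also among the 15 largest increases of genes whose mean RPKM was 5 or more, as was the spindle protein Psrc1 (4.95).

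The largest decrease was that of Klf4, a Krüppel-like factor that restrains T cell division. It fell from 39.5 and 30.4 RPKM to 0.284 and 0.322 RPKM (log2 fold change -6.43, SE 0.179, adjusted p = 3.37e-07). Hspa1b, an inducible heat shock protein of the Hsp70 family, fell from 18.5 and 19.3 RPKM to 0.259 and 0.237 RPKM (-5.77, SE 0.165, adjusted p = 3.54e-07). Jun, a subunit of the dimeric factor AP-1, fell from 458 and 308 RPKM to 6.46 and 9.43 RPKM (-5.57, SE 0.217, adjusted p = 1.06e-06). The 2 unstimulated libraries differed by more than the 2 stimulated ones in the RPKM of Klf4 and Jun, replicate 6 being the higher. Relative to their low level the stimulated values of Jun also lay apart, with replicate 7 the higher. The monocarboxylate carrier Slc16a5 (-4.64), the Notch regulator Dtx1 (-4.14), the kinase Sgk1 (-3.64), the G protein regulator Rgs2 (-3.36), the antiviral enzyme Oas2 (-3.47) and the lymphocyte toxin perforin, Prf1 (-3.31), were among the 15 largest decreases at the same minimum level, together with the uncharacterized A530021J07Rik (-3.77).

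**Figure D1:**
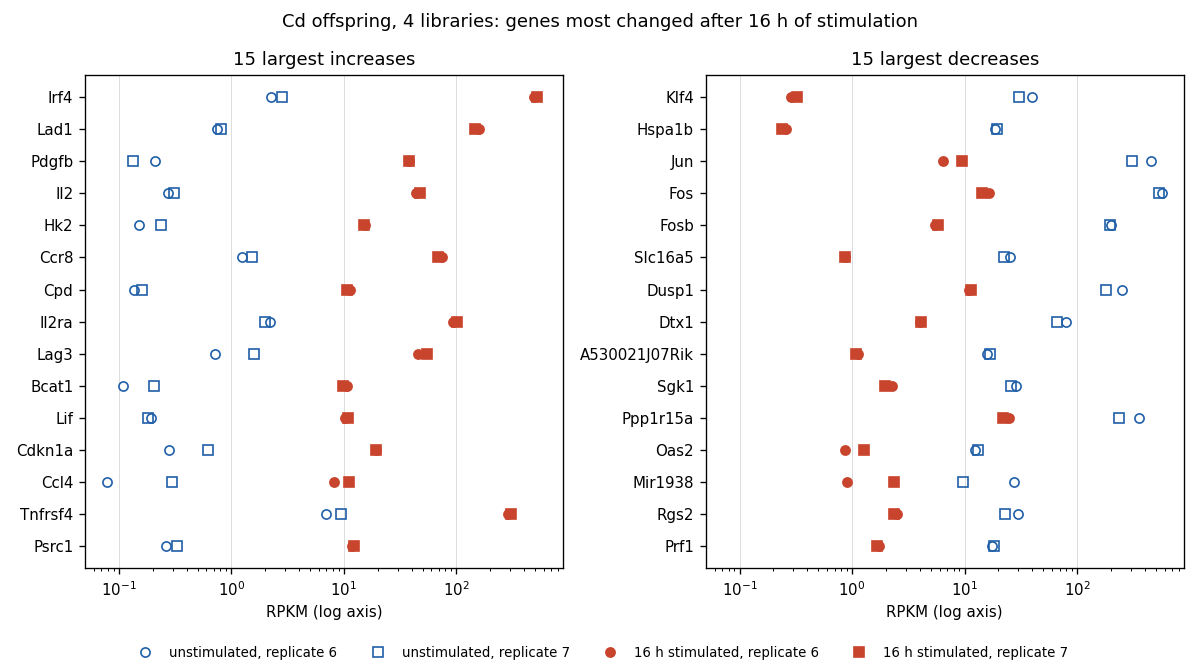
RPKM on a log axis of the 15 most increased (left) and 15 most decreased (right) genes whose mean RPKM was 5 or more, in each of the 4 libraries of Cd offspring (open blue, unstimulated; filled red, stimulated for 16 h; circles, replicate 6; squares, replicate 7). The 2 colours do not overlap in any of these 30 genes, as the rule that chose them required. The decreases include Mir1938, a short microRNA row with 143 reads over the 8 libraries (27.3 and 9.74, then 0.91 and 2.35 RPKM), whose values are imprecise. Irf4 reached 486 and 522 RPKM from 2.27 and 2.82 RPKM.

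Irf4, Il2 and Fos were chosen by hand as examples from the largest increases and decreases. Genes with larger changes than Il2 or Fos, such as Lad1, Pdgfb, Klf4, Hspa1b and Jun, are not shown. The examples therefore do not tell how common TATAAA was among the most changed genes. The 250 bases before their transcription start are given from RefSeq (build GRCm38.p6), 5′ to 3′ on the strand of the gene, with the TATA box sequence TATAAA in capitals.
Irf4 promoter (chr13:30748983-30749232, plus strand): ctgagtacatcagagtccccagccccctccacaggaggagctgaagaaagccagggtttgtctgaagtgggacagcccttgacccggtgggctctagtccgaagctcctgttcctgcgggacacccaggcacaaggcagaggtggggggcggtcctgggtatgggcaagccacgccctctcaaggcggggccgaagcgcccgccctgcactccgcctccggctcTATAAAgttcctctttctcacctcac
Il2 promoter (chr3:37125955-37126204, minus strand): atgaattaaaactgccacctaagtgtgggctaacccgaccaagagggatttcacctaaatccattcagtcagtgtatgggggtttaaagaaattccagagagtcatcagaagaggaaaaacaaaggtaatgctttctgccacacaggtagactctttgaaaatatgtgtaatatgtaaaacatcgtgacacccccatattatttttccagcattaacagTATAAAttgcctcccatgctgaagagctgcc
Fos promoter (chr12:85473640-85473889, plus strand): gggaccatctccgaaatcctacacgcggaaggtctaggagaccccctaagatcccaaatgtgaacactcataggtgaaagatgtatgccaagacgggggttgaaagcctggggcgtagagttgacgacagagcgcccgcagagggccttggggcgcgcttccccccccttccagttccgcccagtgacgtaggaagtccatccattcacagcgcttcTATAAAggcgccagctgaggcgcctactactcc
The capitals begin 26 bases before the start in Irf4, 31 in Il2 and 33 in Fos. Over windows from 250 bases before to 50 after the start, TATAAA was found on either strand in 13.6% of all 32851 promoters of the table, in 6.94% of the 1296 promoters of genes that rose and in 12.3% of the 836 promoters of genes that fell. Among promoters of tested genes that were not called, the share was 6.61%. The E box CACGTG, which Myc and its relatives can bind, was found in 13.7% of the promoters of genes that rose, 8.13% of those of genes that fell and 9.87% of those of genes not called. Other motifs searched differed too, such as CCGGAAGT with 7.72%, 3.11% and 9.31% in the same order. The median number of CG pairs per window was 21, 10 and 21, and its part in these shares was not tested. Such matches describe the letters in these windows, and binding was not measured.

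The immediate early and AP-1 genes, which respond within minutes of a signal, mostly lay lower at 16 h than in the freshly lysed cells. Of 27 tested, 7 rose and 12 fell, with a median log2 fold change of -0.84. Fos went from 569.6 and 531 RPKM to 16.3 and 14.3 RPKM (-5.16, SE 0.0825, adjusted p = 7.99e-08), and its relative Fosb from 199 and 197 RPKM to 5.42 and 5.78 RPKM (-5.12). The 2 stimulated libraries of both genes were far below the 2 unstimulated ones. Junb (-2.63), Jund (-1.67), Klf6 (-2.34), the kinase phosphatase Dusp1 (-4.24), the mRNA decay factor Zfp36 (-1.85) and Csrnp1 (-1.501) fell with them. Other members of the same class rose: the nuclear receptor Nr4a3 was at 17.4 and 15.1 RPKM in unstimulated and at 118 and 118 RPKM in stimulated cells (2.86), and the zinc finger factor Egr3 at 12.04 and 11.5 and 84.2 and 86.2 RPKM (2.84). Egr2 (1.703) and Gadd45b (1.27) rose as well, whereas the AP-1 subunit Fosl2 did not pass the 2-fold limit (0.96).

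The unstimulated libraries were not equal in these genes. All 27 genes of the list had a higher RPKM in unstimulated replicate 6 than in replicate 7, while 54.2% of all genes tested did. Junb was at 964 and 667 RPKM in replicates 6 and 7, in that order, and Zfp36 at 520.2 and 363 RPKM. Without unstimulated replicate 6 the list held 9 increases and 11 decreases, and without replicate 7 it held 6 and 14. Both replicates of the stimulated group lay close together in most of the list.

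Of 25 transcription factors of activated T cells, 12 rose and 3 fell (median log2 fold change 0.76). Next to Irf4, its relative Irf8 went from 1.86 and 1.46 RPKM to 36.7 and 52.2 RPKM (4.65), and Bhlhe40, a repressor that supports cytokine production, from 3.01 and 3.24 to 37.4 and 39.5 RPKM (3.58). The growth factor Myc was at 41.1 and 32.2 RPKM before and 189 and 194 RPKM after stimulation (2.39, SE 0.1098, adjusted p = 1.8e-06). The stimulated libraries of these genes were close to each other, except for Irf8, whose replicate 7 was the higher. The NF-kB subunits Rel (2.05), Nfkb1 (1.87) and Nfkb2 (1.64) rose together. The inhibitor of differentiation Id2 fell (-1.49), and so did Maf (-1.16) and Tox (-1.001), although the calls of Maf and Tox were lost when unstimulated replicate 7 or stimulated replicate 7 was left out (-0.82 and -1.31 for Maf, -0.99 and -0.91 for Tox), and that of Maf also without stimulated replicate 6 (-1.003). Gata3, the factor of type 2 helper cells, was just short of the limit with all libraries (-0.99) and past it without unstimulated replicate 7 (-1.05) or stimulated replicate 6 (-1.09).

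Activation receptors and ligands rose in 16 of 25 genes and fell in none (median log2 fold change 1.99). Il2ra, the alpha chain that gives the interleukin-2 receptor its high affinity, was at 2.19 and 2.001 RPKM in unstimulated and 93.98 and 101 RPKM in stimulated libraries (5.47, SE 0.102, adjusted p = 1.22e-07). The inhibitory receptor Lag3 went from 0.7198 and 1.604 RPKM to 45.9 and 54.3 RPKM (5.403). Tnfrsf4, the costimulatory receptor OX40, went from 6.9997 and 9.44 RPKM to 291 and 303 RPKM (5.17). The groups were far apart for all 3 receptors. Of the other receptors, Tnfrsf9 or 4-1BB (4.102), Cd83 (4.098), Tnfrsf18 or GITR (2.805), the transferrin receptor Tfrc (2.54), the checkpoint receptors Ctla4 (2.39) and Pdcd1 (2.01) and the costimulator Icos (1.35) rose. Cd69, an early activation antigen, was already at 116 and 106 RPKM in unstimulated cells and reached 308 and 306 RPKM (1.47). Cd28, the receptor that the beads engage, was at 97.6 and 111 and 144 and 131 RPKM and was not called (0.404).

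Cytokines and chemokines rose in 8 and fell in 2 of 17 tested genes. Il2, the growth factor that CD4+ T cells release on activation, was at 0.271 and 0.308 RPKM in the unstimulated and 43.9 and 47.2 RPKM in the stimulated libraries (6.87, SE 0.137, adjusted p = 1.36e-07). Pdgfb, a chain of platelet-derived growth factor, went from 0.2099 and 0.132 RPKM to 37.7 and 38.2 RPKM. Stimulated replicates 6 and 7 agreed closely in both. The cytokine Lif (5.22), the chemokine Ccl4 (5.18), lymphotoxin Lta (2.52) and Tnf (2.19) rose. Ifng, the signature cytokine of type 1 helper cells, fell from 5.84 and 7.62 RPKM to 1.28 and 2.37 RPKM (-1.87, SE 0.264, adjusted p = 0.000498), with no overlap between the groups. The other decrease was that of the chemokine Ccl5 (-2.19), and the list held 1 decrease in place of 2 when unstimulated replicate 6, unstimulated replicate 7 or stimulated replicate 6 was left out.

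Of 28 cytokine receptor, STAT and SOCS genes, 5 rose, 2 fell and 21 were not called (median log2 fold change -0.47). Over all genes tested 11.4% rose and 7.24% fell, so the counts of this list were not far from those shares. The rising genes held several of interleukin-2 signalling: the beta chain Il2rb (23.4 and 27.4 to 93.7 and 96.7 RPKM, 1.91), the transcription factor Stat5a (25.9 and 23.3 to 77.9 and 78.97 RPKM, 1.67) and its target and feedback inhibitor Cish (7.58 and 7.23 to 92.2 and 101 RPKM, 3.69). All stimulated values of these genes lay above all unstimulated ones. The inhibitor Socs3 (-1.31) and the interleukin-18 receptor Il18r1 (-1.53) fell, and the interleukin-7 receptor Il7r, which keeps naive cells alive, stayed within 2-fold (-0.65).

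Genes of quiescence and the naive state moved the other way. Of 26 tested, 9 fell and 1 rose (median log2 fold change -0.49). The glucocorticoid-induced Tsc22d3 went from 143 and 172 RPKM to 24.4 and 21.8 RPKM (-2.76), and the transcription factor Foxo1 from 137 and 134 RPKM to 44.7 and 44.7 RPKM (-1.597, SE 0.0413, adjusted p = 2.97e-07). Replicates were close and the groups apart in both. Tob1 (-1.78), Txnip (-1.77), Klf3 (-1.09) and Klf2 (-1.201) fell, the call of Klf2 being lost without unstimulated replicate 6 (-0.98). The 1 increase was Bach2, a repressor of effector genes (1.099). Tcf7 (-0.56) and Lef1 (-0.799), the factors most tied to naive identity, were lower by less than 2-fold.

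Homing and egress genes fell in 8 and rose in 2 of 19. The ATP receptor P2rx7 (8.505 and 8.79 to 0.776 and 1.02 RPKM, -3.14), the chemokine receptors Cxcr4 (73.6 and 119 to 13.99 and 14.6 RPKM, -2.700) and Cxcr3 (-1.79), the gut-homing integrin chain Itgb7 (-1.79) and the egress receptor S1pr1 (217 and 228 to 97.7 and 94.1 RPKM, -1.21) were among the genes that fell. The 2 that rose were Ccr8 (1.25 and 1.52 to 74.1 and 68.97 RPKM) and Ccr4 (1.82), receptors of skin-homing and type 2 helper cells. The receptor complex and its near kinases changed less: 1 of 26 genes rose, the kinase Zap70 (104 and 94.01 to 226 and 228 RPKM, 1.199), and 2 fell, the adaptor Skap1 (-1.32) and the kinase Prkcq (-1.02), the latter not without stimulated replicate 7 (-0.97).

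**Figure D2:**
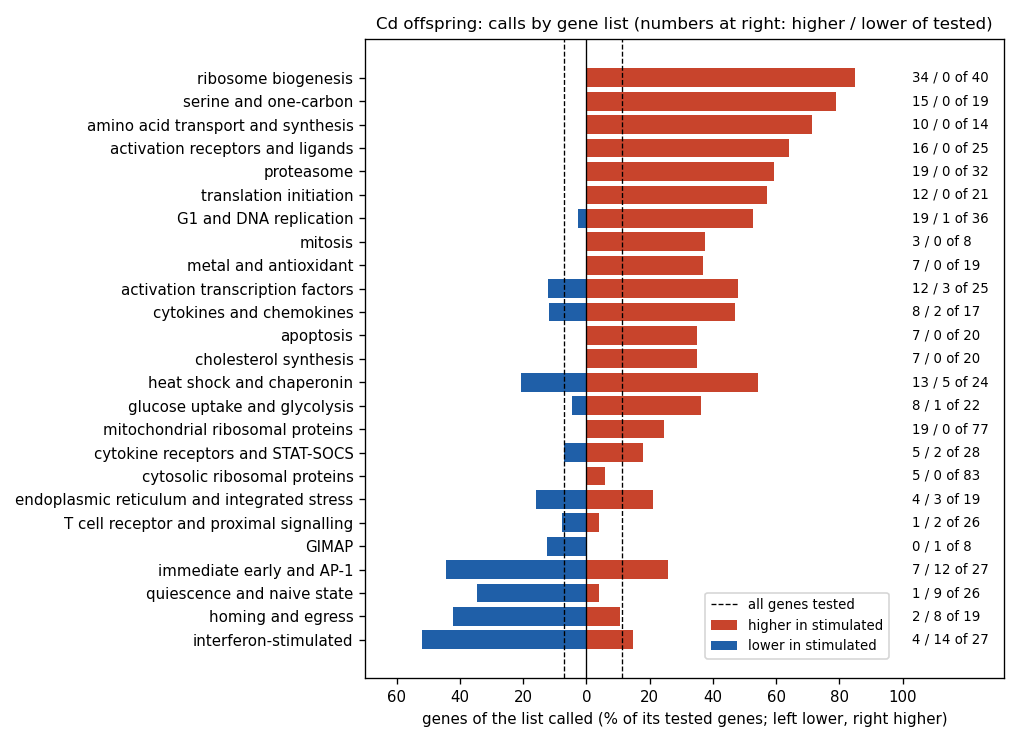
Percentage of the tested genes of each list that were called higher (red, to the right) or lower (blue, to the left) after 16 h of stimulation in Cd offspring, with the counts at the right and dashed lines at 11.4% and 7.24%, the shares over all genes tested. Ribosome biogenesis stands at the top with 34 of 40 genes higher, and interferon-stimulated genes at the bottom with 14 of 27 lower.

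Ribosome biogenesis genes rose in 34 of 40 and fell in none (median log2 fold change 1.41). Nop16 went from 9.77 and 9.94 RPKM to 53.7 and 54.1 RPKM (2.44, SE 0.0676, adjusted p = 3.37e-07). The pseudouridylation proteins Nhp2 (2.11) and Gar1 (2.08), the RNA polymerase I subunit Polr1b (1.99), nucleolin or Ncl (117 and 118 to 403 and 403 RPKM, 1.78), the methyltransferase fibrillarin or Fbl (1.701) and nucleophosmin or Npm1 (1.37) were among them. The list as a whole took 0.43% of the reads in each unstimulated library and 1.19% and 1.20% in the stimulated libraries. Of 21 translation factors, 12 rose and none fell, among them Eif5a (154 and 146 to 528 and 551 RPKM, 1.85), the cap-binding protein Eif4e (1.38) and its inhibitor Eif4ebp1 (2.26), whereas the very abundant elongation factor Eef1a1 stayed near its level (3546 and 3566 and 3057 and 3007 RPKM, -0.23). Mitochondrial ribosomal proteins rose in 19 of 77 genes and proteasome subunits in 19 of 32, with none falling in either list. The proteasome genes that rose included Psma5 (1.74) and Psmd1 (1.59), while the immunoproteasome subunit Psmb8 was slightly lower (-0.297).

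Cell cycle genes of the G1 phase and of DNA replication rose in 19 of 36 and fell in 1. Cdk6, a kinase that drives exit from G1, went from 3.52 and 3.33 RPKM to 29.6 and 28.005 RPKM (3.03), and its relative Cdk4 from 54.7 and 51.6 to 134 and 141 RPKM (1.37). The cell cycle inhibitor Cdkn1a was at 0.2796 and 0.625 RPKM before and 19.5 and 19.1 RPKM after stimulation (5.21, SE 0.26997, adjusted p = 3.01e-06). Stimulated and unstimulated libraries were well apart in all 3. The helicase subunits Mcm6 (1.88) and Mcm5 (1.81), the replication factor Gins2 (2.98) and cyclin D2, Ccnd2 (1.101), rose, and the inhibitor Cdkn2d fell (-1.55). Of 8 tested mitosis genes, which act later in the cycle, the checkpoint kinase Bub1b (2.697), Cdc20 (1.34) and the topoisomerase Top2a (1.17) rose, the last not without stimulated replicate 7 (0.98). The proliferation marker Mki67 was low throughout, at 0.828 and 1.09 RPKM before and 0.307 and 0.561 RPKM after stimulation, and was not called (-1.02).

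Metabolic genes rose in groups. Of 19 serine and one-carbon genes, which feed nucleotide synthesis, 15 rose and none fell (median log2 fold change 1.44), among them Psat1 (10.6 and 10.3 to 55.4 and 57.5 RPKM, 2.42), Shmt1 (2.36), Shmt2 (25.9 and 21.8 to 119 and 122 RPKM, 2.34), Phgdh (1.74) and the pyrimidine enzyme Cad (2.103). Amino acid and polyamine genes rose in 10 of 14, such as the large neutral amino acid carrier Slc7a5 (18.4 and 15.3 to 72.6 and 76.6 RPKM, 2.14), asparagine synthetase Asns (3.82) and spermidine synthase Srm (2.64). Of 22 genes of glucose uptake and glycolysis 8 rose and 1 fell, and 18 had a log2 fold change above 0 (median 0.45). Hk2 went from 0.149 and 0.238 RPKM to 15.3 and 15.2 RPKM, and Tpi1 (2.17), Pgk1 (1.99), Pgam1 (1.74) and Aldoa (1.15) rose, whereas the pyruvate dehydrogenase kinase Pdk1 fell (90.03 and 90.1 to 39.3 and 39.7 RPKM, -1.19) and the glucose carrier Slc2a3 was not called (-0.65). Cholesterol synthesis genes rose in 7 of 20, Cyp51 the most (1.83) and Sqle among the others (1.47).

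Of 24 tested heat shock and chaperonin genes, 13 rose, 5 fell and 6 were not called. The mitochondrial chaperonin Hspd1 went from 51.7 and 55.8 RPKM to 262 and 256 RPKM (2.27), and the cytosolic chaperonin subunits Cct6a (1.51) and Tcp1 (1.39) rose. The stress-inducible Hspa1a fell, from 7.27 and 8.18 RPKM to 0.0813 and 0.1402 RPKM (-5.23), as did Hspa1b and the cochaperones Dnajb1 (-1.31) and Dnaja1 (-1.63), whereas the also inducible Hsph1 was higher without passing the limit (0.94). Hspa1a and Hspa1b are near-identical copies, so that reads can be split between them and the value of each is uncertain. Among 19 genes of the endoplasmic reticulum and integrated stress responses 4 rose and 3 fell, where 11.4% and 7.24% of all genes tested did. The changes ran from Sdf2l1 (1.92) to the cochaperone Dnajb9 (88.3 and 83.2 to 11.9 and 12.1 RPKM, -2.83), the phosphatase regulator Ppp1r15a (352 and 237 to 24.8 and 22.1 RPKM, -3.62) and Ddit3 or CHOP (-1.29).

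Because the parents had been given a metal, genes of metal handling and antioxidant defence were read as well. Of 19 tested, 7 rose and none fell. Thioredoxin, Txn1, went from 33.4 and 33.5 RPKM to 202 and 204 RPKM (2.599, SE 0.0527, adjusted p = 1.42e-07), its reductase Txnrd1 from 19.8 and 20.3 to 68.4 and 66.5 RPKM (1.75), and the zinc importer Slc39a14 from 5.97 and 5.74 to 14.4 and 14.99 RPKM (1.31). The groups did not overlap. The zinc exporter Slc30a1, a target of the metal-sensing factor Mtf1, was not called (-0.86), and the metallothioneins Mt1 and Mt2 were below the level tested. None of the 19 genes passed the test for a difference in response from control offspring (adjusted p below 0.05). Over all genes tested 0.357% passed it, so that none among so few genes tells little. Their median log2 fold change was 0.62 in Cd and 0.42 in control offspring. Taken gene by gene, the median difference was only 0.015, with 11 of 19 above 0.

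Interferon-stimulated genes fell in 14 and rose in 4 of 27 (median log2 fold change -1.17). The antiviral genes induced by type I interferon made up the falling side. Isg15, a ubiquitin-like modifier, went from 15.9 and 24.2 RPKM to 2.35 and 3.01 RPKM (-2.84, SE 0.244, adjusted p = 3.57e-05), and Ifit1, which binds foreign RNA caps, from 13.9 and 20.7 RPKM to 2.26 and 4.46 RPKM (-2.38). Both groups of values were apart. Oasl1 (-3.25), Rsad2 (-2.72), Mx1 (-2.904) and the factor Irf7 (-1.75) fell with them. The 4 genes that rose were GTPases known as targets of interferon gamma: Gbp2 (33.9 and 34.3 to 102 and 208 RPKM, 2.09), Gbp3 (1.78), Iigp1 (8.64 and 13.1 to 29.7 and 60.4 RPKM, 1.98) and Igtp.

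The 2 stimulated libraries differed in this list. Replicate 7 was above replicate 6 in 26 of 27 genes, while it was above in 45.8% of all genes tested. Gbp2 stood at 2 clearly different levels in stimulated replicates 6 and 7, and Ifit3 was not called with all libraries (-1.34) but was called without replicate 7 (-1.98). Without stimulated replicate 7 the list held 3 increases, Igtp being lost, and 16 decreases; without replicate 6 it held 6 and 13.

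Isg15 and Ifit1 carry the sequence that interferon-activated factors bind close to their start, and the 250 bases before it are shown from RefSeq (GRCm38.p6), 5′ to 3′, with capitals for the interferon response element, 2 copies of GAAA with 2 bases between them, on either strand.
Isg15 promoter (chr4:156200819-156201068, minus strand): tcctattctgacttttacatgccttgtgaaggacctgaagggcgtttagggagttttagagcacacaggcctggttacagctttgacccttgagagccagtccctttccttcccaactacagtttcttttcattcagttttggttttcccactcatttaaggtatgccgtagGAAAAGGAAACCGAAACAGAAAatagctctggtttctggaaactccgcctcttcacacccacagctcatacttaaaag
Ifit1 promoter (chr19:34640639-34640888, plus strand): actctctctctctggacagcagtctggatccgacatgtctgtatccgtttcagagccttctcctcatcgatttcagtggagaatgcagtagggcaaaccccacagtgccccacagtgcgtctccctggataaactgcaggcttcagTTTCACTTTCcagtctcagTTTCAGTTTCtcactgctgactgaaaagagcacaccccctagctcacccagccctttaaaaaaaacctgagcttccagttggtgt
The element was found in the 300-base window of any promoter for 14 of the 21 listed genes with a promoter in the table. Of all promoters, counted singly rather than by gene, 3.44% held it. Of these 14 genes 6 fell, 3 rose and 5 were not called, so that both directions occurred among genes with the element. Of all 21 genes 11 fell, 3 rose and 7 were not called, so that falls were not confined to genes with the element.

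**Figure D3:**
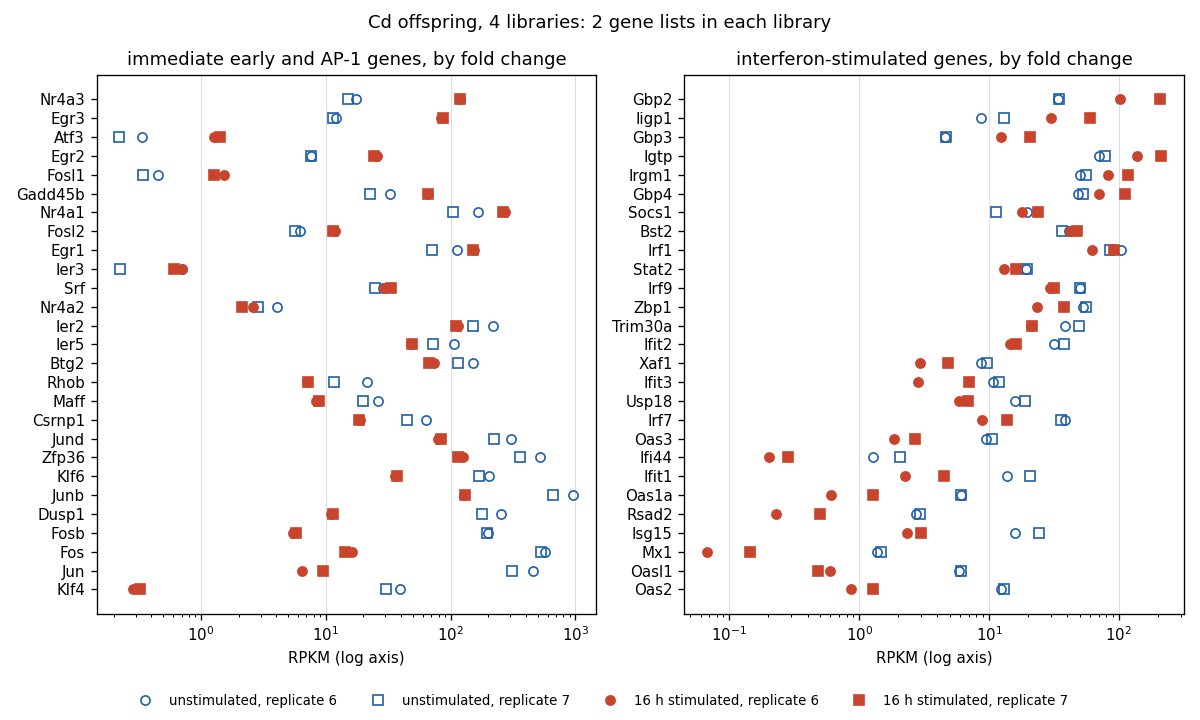
RPKM on a log axis of the 27 immediate early and AP-1 genes (left) and the 27 interferon-stimulated genes (right) in each of the 4 libraries of Cd offspring, with symbols as in the plot of the largest changes. At left the open circles (unstimulated replicate 6) lie above the open squares in all 27 genes, and at right the filled squares (stimulated replicate 7) lie above the filled circles in 26 of 27.

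Of 20 apoptosis genes 7 rose and none fell, where 11.4% and 7.24% of all genes tested did. The survival protein Bcl2l1 went from 7.21 and 6.49 RPKM to 122 and 121 RPKM (4.13), and Bcl2a1b from 10.99 and 13.6 RPKM to 107 and 110.0 RPKM (3.14), although the near-identical copies of Bcl2a1 can share reads. The death effector Bax rose too (1.37), and Bcl2, the survival factor of resting cells, was not called (-0.91). Among 10 DNA methylation genes 4 rose, 1 fell and 5 were not called (median log2 fold change -0.05). Uhrf1, which guides maintenance methylation, went from 1.16 and 1.0002 RPKM to 13.5 and 15.4 RPKM (3.63), the de novo enzyme Dnmt3a rose (1.61), and the demethylating enzyme Tet1 fell from 5.34 and 6.42 RPKM to 1.01 and 0.972 RPKM (-2.45). Galnt7 (22.2 and 27.2, then 20.3 and 19.8 RPKM, -0.295) and Galnt1 (44.3 and 47.5, then 37.7 and 36.8 RPKM, -0.298), the glycosyltransferases that the study followed, were not called.

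Of the 483 genes that RefSeq types as long non-coding RNA (lncRNA), 41 rose (8.49%) and 55 fell (11.4%), whereas of 10742 protein-coding genes 11.8% rose and 6.79% fell. The reads on lncRNA genes went from 2.07% and 2.12% of the total to 1.36% and 1.29%. Malat1, an abundant nuclear RNA, took 1.48% and 1.52% of all reads before and 0.763% and 0.717% after stimulation. It was at 2122 and 2184 RPKM in unstimulated and 1093 and 1027 RPKM in stimulated libraries (-1.02, SE 0.0902, adjusted p = 4.08e-05), a call that was lost without stimulated replicate 7 (-0.98). The most increased lncRNA genes were 5033430I15Rik (3.29), 2010204K13Rik (0.9798 and 0.566 to 6.44 and 6.26 RPKM, 2.93), Map2k3os (0.284 and 0.461 to 2.23 and 2.66 RPKM, 2.45), Snhg4 (4.29 and 4.65 to 25.2 and 24.4 RPKM, 2.45) and 1110038B12Rik (13.1 and 12.7 to 67.3 and 65.5 RPKM, 2.35). The call of 5033430I15Rik, at 0.143 and 0 RPKM in unstimulated cells, was lost without unstimulated replicate 7 (2.65) or either stimulated library (3.38 and 3.19). The most decreased were Gm6213 (-3.61), U90926 (-2.93), Arhgap15os (-2.76), Gm20199 (14.7 and 16.02 to 3.05 and 2.44 RPKM, -2.45) and 0610005C13Rik (-2.33).

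The study listed 23 lncRNA genes that responded in control offspring. All 23 were tested here, and in Cd offspring 9 were called higher and 7 lower, while 22 were called in control offspring, the samples on which the list was chosen. None of the 23 passed the test for a difference in response from control offspring (adjusted p below 0.05), but only 0.357% of all genes tested did, so this tells little. Snhg7, a host of small nucleolar RNAs that the study examined further, was at 7.22 and 6.76 RPKM in unstimulated and 17.2 and 18.8 RPKM in stimulated cells (1.35, SE 0.112, adjusted p = 2.92e-05). The stimulated libraries lay above the unstimulated ones. The log2 fold change in control offspring was 1.18, and the difference of 0.17 (SE 0.158) was not called (adjusted p = 0.715). AI662270 was the most abundant of the list after stimulation (44.98 and 52.4 to 114 and 109.7 RPKM, 1.204). AW011738 (11.2 and 10.6 to 2.58 and 2.64 RPKM, -2.01), Rapgef4os2 (-2.05), Rbm3os (-1.77), the imprinted Peg13 (22.3 and 17.7 to 6.84 and 6.91 RPKM, -1.52) and the microRNA host Mir22hg (-1.45) fell. The oncogene-linked hosts Mir17hg (10.5 and 9.47 to 18.9 and 16.5 RPKM, 0.82) and Pvt1 (5.33 and 5.29 to 9.44 and 9.305 RPKM, 0.81) were higher but did not reach 2-fold.

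**Figure D4:**
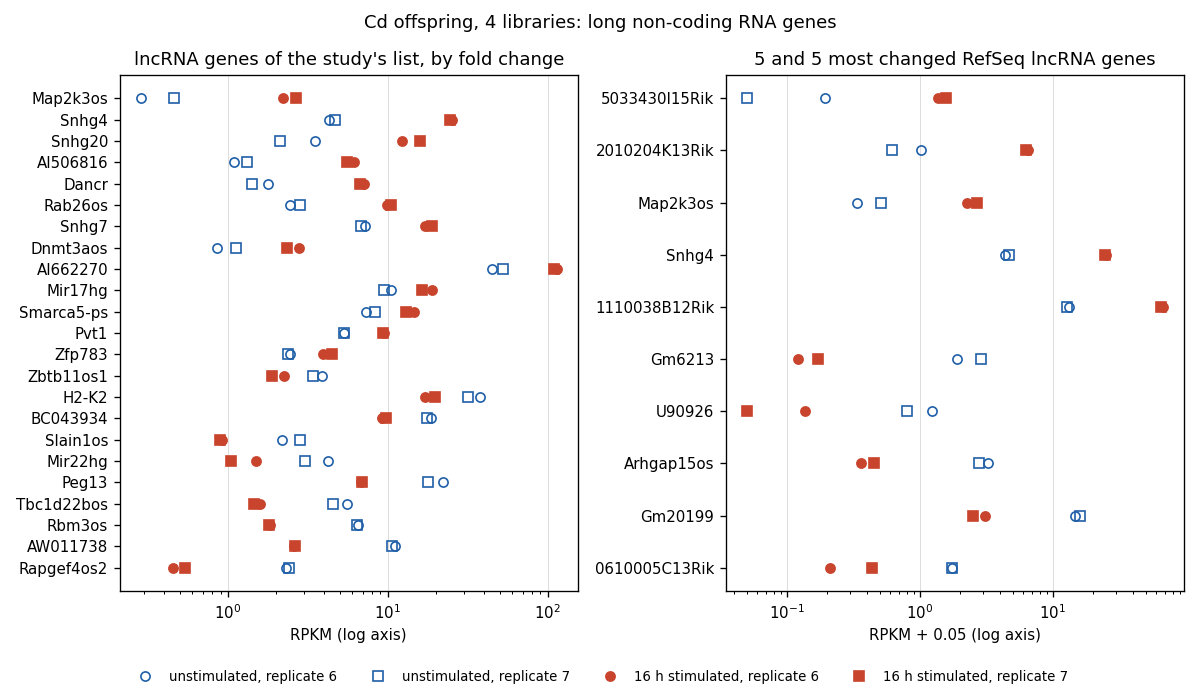
RPKM on a log axis of the 23 lncRNA genes of the study's list (left) and of the 5 most increased and 5 most decreased RefSeq lncRNA genes (right, with 0.05 added so that a value of 0 can be drawn), in each of the 4 libraries of Cd offspring. Symbols are as in the plot of the largest changes, and Snhg7 lies at 7.22 and 6.76 RPKM unstimulated and 17.2 and 18.8 RPKM stimulated.

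Of 22 further lncRNAs with known names, 2 rose, 2 fell and 18 were not called, near the shares over all genes tested (11.4% and 7.24%). Among the hosts of small nucleolar RNAs, Snhg6 (22.6 and 22.6 to 46.6 and 48.2 RPKM, 1.06) and Snhg16 (1.18) rose, while Gas5 stayed within 2-fold (0.41). Dubr fell (-1.34) along with Malat1, and the nuclear paraspeckle RNA Neat1 was not called (-0.45). Opposite-strand genes such as Map2k3os, Rbm3os and Rapgef4os2 overlap or face a coding gene, and the counting is not stated to have used the strand, so that reads of the partner may be counted in them.

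MicroRNA genes were counted as rows of about 86 bases in libraries made from mRNA, so that their reads are fragments of longer transcripts and do not measure the mature microRNA. Of 180 such rows 8 rose (4.44%) and 19 fell (10.6%), against 11.4% and 7.24% of all genes tested. The split between rises and falls shifted when 1 Cd library was left out, so it is imprecise. The 3 called rows with most reads were Mir7-1 (35.8 and 39.7 to 12.6 and 15.98 RPKM, -1.400; 412 reads over the 8 libraries), Mir3061 (31.7 and 32.6 to 13.5 and 14.2 RPKM, -1.21; 344 reads) and Mir199a-1 (55.2 and 43.1 to 17.5 and 17.4 RPKM, -1.48; 320 reads). All 3 fell, but the call of Mir199a-1 was lost without unstimulated replicate 6 (-1.300) or either stimulated library (-1.48 and -1.47). The mature sequences that these rows encode are given from RefSeq (GRCm38.p6), with the seed, bases 2 to 8, in capitals.
mmu-miR-7a-5p: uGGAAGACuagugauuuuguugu
mmu-miR-7a-1-3p: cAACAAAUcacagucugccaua
mmu-miR-3061-5p: cAGUGGGCcgugaaagguagcc
mmu-miR-3061-3p: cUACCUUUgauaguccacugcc
mmu-miR-199a-5p: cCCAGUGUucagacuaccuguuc
mmu-miR-199a-3p: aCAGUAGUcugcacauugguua
No seed was shared among the 6. Mir34a, the row of the microRNA that the study overexpressed, had 14 reads in all, at 0 and 0 RPKM in unstimulated and 0.892 and 2.69 RPKM in stimulated cells. Mir25 (1.398) and Mir425 (2.56) rose, the latter not without stimulated replicate 7 (2.398). Small nucleolar RNA rows, equally short, rose in 14 (13.7%) and fell in 8 (7.84%) of 102, near the shares over all genes tested. Their split likewise shifted when 1 Cd library was left out. Among the more abundant ones the changes ran from Snord52 (3.48) to Snora28 (-1.67). Pseudogenes rose in 62 of 326 (19%) and fell in 13, and near-identical parent genes can share their reads.

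Marker genes of other cells were read because a bulk library cannot tell fewer cells of a type from less RNA per cell. Genes used as NK cell markers summed to 25.2 and 28.1 RPKM in unstimulated and 3.79 and 4.21 RPKM in stimulated cells, and Prf1 made up most of this (17.4 and 18.2 to 1.73 and 1.68 RPKM). Klrb1c (3.15 and 4.25 to 0.156 and 0.268 RPKM, -3.62) and Klrk1 (-2.49) fell too, so that 3 of 5 tested NK genes fell, while the defining receptor Ncr1 was at or near 0 throughout. Of 3 tested B cell genes Ighm fell (-1.24), while Cd79a (3.38 and 2.94 to 4.695 and 4.73 RPKM, 0.57) and Ighd (0.9195 and 1.01 to 1.76 and 1.56 RPKM, 0.72) were not called. Of 13 myeloid genes only 2 were tested, of which Itgam fell (-2.03). Of the 8 regulatory T cell markers 5 rose, among them Il2ra and Ctla4, which are also in the list of activation receptors. Ikzf4 (2.39 and 2.26 to 15.1 and 15.9 RPKM) and Lrrc32 (0 and 0.051 to 2.68 and 2.48 RPKM) rose too. Foxp3 itself was not called (4.48 and 4.72 to 7.69 and 7.202 RPKM, 0.68). The part of other cells in the rising and falling genes was not tested.

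In control offspring, whose libraries are separate from those of Cd offspring, 1449 genes were higher (11.5%) and 904 lower (7.17%). Of the genes called higher in Cd offspring 84.0% were called higher in control offspring, and of those of control offspring 83.2% in Cd offspring. For lower genes the shares were 76.1% and 76.9%. A single gene, the short row Mir669k, was called in opposite directions. Of 230 genes called higher in Cd offspring alone, 209 had the same sign in control offspring, and 9 passed the test of the difference itself.

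That test, the interaction contrast with an adjusted p below 0.05, called 38 genes (0.301%) with a response more positive in Cd offspring and 7 (0.0555%) with one more negative. Of the 38, 17 were cytosolic ribosomal protein genes and 13 were pseudogenes. These classes held 83 and 326 of the 12605 genes tested, and near-identical copies of such genes can share reads. The log2 fold change of Rps27 was -0.16 in Cd and -1.41 in control offspring (difference 1.25, SE 0.0917, adjusted p = 0.00892). For the growth-related Tpt1 it was 0.14 and -1.03 (difference 1.17, SE 0.0685, adjusted p = 0.00436). Over the 83 ribosomal protein genes tested, 5 rose and none fell in Cd offspring, and the median was 0.38 in Cd and -0.22 in control offspring. These genes took 1.94% and 1.96% of the reads in unstimulated Cd libraries and 2.49% and 2.29% in unstimulated control libraries, against 2.02% to 2.12% in the 4 stimulated libraries. Over all 627 tested genes with transcripts of 300 to 600 bases the median was 0.06 in Cd and -0.20 in control offspring, and the part of transcript length in the difference was not tested. Of the 7 on the other side 6 were short rows of 11 to 41 reads, and the seventh was Hsph1, a chaperone of the Hsp110 family. Hsph1 went from 48.3 and 59.96 RPKM to 105 and 102 RPKM in Cd offspring (0.94), and in control offspring its log2 fold change was 1.91 (difference -0.97, SE 0.136, adjusted p = 0.0462). Of 45 calls in all, without Cd stimulated replicate 7 there were 2, without control stimulated replicate 6 there were 3, without control unstimulated replicate 6 there were 27, without control stimulated replicate 7 there were 28, and without a trend in the empirical Bayes prior there were 4.

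**Figure D5:**
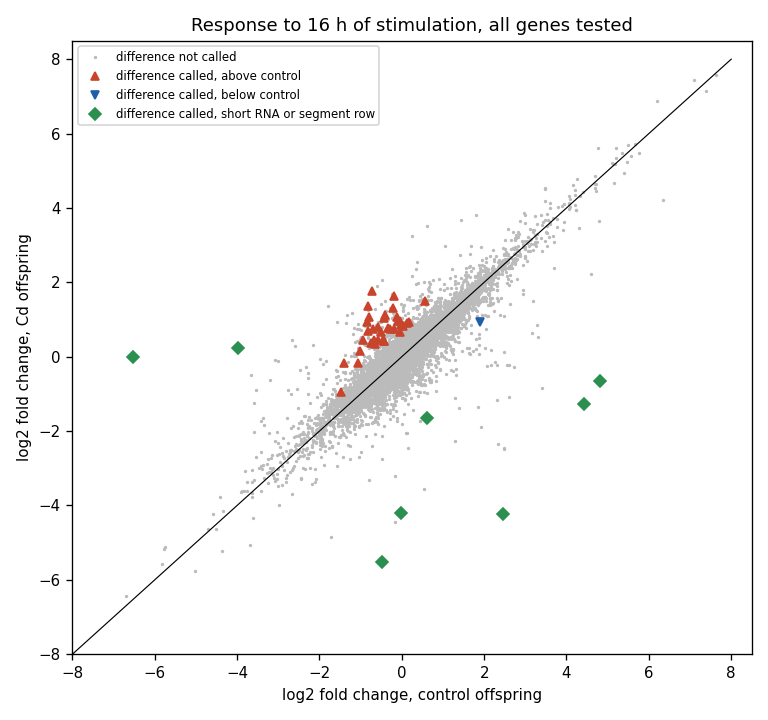
Log2 fold change after 16 h of stimulation in Cd offspring against that in control offspring for the 12605 genes tested (grey points), with the line of equal response. Triangles (genes) and green diamonds (short RNA or receptor segment rows) mark the 45 genes called for a difference in response: Hsph1 (blue) and 6 short rows lie below the line and 38 genes above it.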

How the data were processed

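RNA of splenic CD4+ T cells was sequenced as paired-end mRNA libraries. Per the labels, reads were aligned to mm10 with Subread and counted with featureCounts, whose versions and strand setting are not given in the sources used here. The deposited table holds log2 values, log2(RPKM + 1) + 0.0001, computed by the authors, which were transformed back to RPKM, where a design for RPKM had been planned. Read numbers and totals were worked out from the spacing of low values (99.8% of checked lengths came out whole within 0.002). All 8 libraries were fitted together with limma 3.58.1 in R 4.3.3 on log2(RPKM + 0.1), with 1 mean per group, a trend in the empirical Bayes prior and 4 residual degrees of freedom. Genes whose mean RPKM was below 0.5 were not tested. A stimulation call needed a change of more than 2-fold and an adjusted p below 0.01, and a difference call an adjusted p below 0.05. The scripts were tested on simulated data. Gene types, promoters and microRNA sequences came from RefSeq, which matched 12089 of the 12605 tested genes. Tables were handled in Python 3.11.15 with numpy 2.4.6 and pandas 2.3.3, and figures drawn with matplotlib 3.10.9.

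The members and gene lists were chosen with earlier results of these data known. Named genes were those of the lists, the 15 largest increases and 15 largest decreases among calls whose mean RPKM was 5 or more and whose groups did not overlap, the 5 and 5 most changed lncRNA genes, the 5 and 5 genes most different in response, and the 3 called microRNA rows with most reads. The study's report describes the sorted cells as CD4+CD25- conventional T cells, while the labels give CD4+ T cells. The sex of the mice is not in the labels, and in the 8 libraries Xist was at 49.3 to 67.1 RPKM while the Y-linked Kdm5d, Eif2s3y, Uty and Ddx3y were at or near 0. Alternatives were other pseudocounts, filters, scalings, thresholds and priors, a replicate block, voom on recovered reads, the Cd libraries alone and each library left out. List counts without each Cd library were added after seeing the data.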

Additional observations from a re-analysis of the deposited data

Results flagged for a closer look

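The response to stimulation differed between Cd and control offspring in 45 genes by the limma interaction contrast (Benjamini-Hochberg adjusted p under 0.05), and the 11 named ones follow with the difference as Cd minus control on the log2 scale. Among genes with many reads, the chaperone Hsph1 differed by -0.97 (40637 reads over the 8 libraries, adjusted p = 0.0462), with a log2 fold change of 0.94 in Cd and 1.91 in control offspring. The pseudogenes Gm5621 (2.50, adjusted p = 0.0169), Gm5093 (2.17, adjusted p = 0.0102) and Rpl31-ps9 (1.85, adjusted p = 0.0368) were higher after stimulation in Cd offspring and lower in control offspring.

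The other named differences were in short rows with few reads. These were Trdd1 (6.54, 6 reads over the 8 libraries, adjusted p = 0.0102), Mir101b (4.22, 15 reads, adjusted p = 0.0233), Mir669k (-6.69, 11 reads, adjusted p = 0.00892), Mir1249 (-5.69, 20 reads, adjusted p = 0.0486), Mir1934 (-5.46, 17 reads, adjusted p = 0.0477), Trgj4 (-5.04, 16 reads, adjusted p = 0.0128) and Mir361 (-4.19, 11 reads, adjusted p = 0.0462). With so few reads these fitted values depend on the pseudocount and are no bounds.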

How the results depend on the processing

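The 2348 genes called for stimulation ranged from 1745 to 2659 over the alternatives, and from 2090 to 2336 with 1 library left out. The count of lncRNA genes called, 96, became 58 with a pseudocount of 1 RPKM and 77 to 98 with 1 library left out. The study's 23 lncRNAs gave 14 to 18 calls, and 15 to 17 with 1 library left out. The 45 differences in response became 28 with no filter on low values, 4 with no trend, 112 with voom on recovered reads, and 2 to 63 with 1 library left out. The 2 calls came without Cd stimulated replicate 7 and the 63 without Cd unstimulated replicate 7. The causes were not tested. With the replicate number as a block, 2318 genes, 93 lncRNA genes, 16 of the study's lncRNAs and 25 differences were called. Deviations of same-numbered libraries correlated at 0.00852 in Cd and 0.0635 in control offspring over the tested genes, and whether they share an animal cannot be told from this. Of 206 genes followed one by one for stimulation, 184 kept direction and side of the threshold under every alternative run, 15 lost a call and 7 gained one under at least 1, and none changed sign. Each of the 11 genes named for the difference lost its call under at least 1. At this depth, rows with few reads are imprecise.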
